A study of Mus musculus with 12 samples.

Results

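Ttn, the gene that encodes the giant muscle protein titin, is described here in mouse embryonic stem cells of 2 genotypes grown in 2 media. It is 1 row of a table of 22416 genes counted in 12 RNA-seq libraries, and it was chosen by its measured counts, which were very high in LIF/2i and lower in LIF, by a larger fold in WT than in KI. Its own levels are therefore given as a description, without a test. The 4 groups were KI cells in LIF, KI cells in LIF/2i, WT cells in LIF and WT cells in LIF/2i, with 3 libraries each. KI cells are homozygous for the A allele of eIF2α (eIF2α A/A), whose product has alanine in place of the serine that is the target of the stress kinases, and WT cells carry eIF2α +/+. For 6 days all cells had the same medium without serum, to which leukaemia inhibitory factor (LIF) was added. In LIF/2i the medium also held PD0325901, an inhibitor of the kinase MEK, and CHIR99021, an inhibitor of the kinase GSK3. The labels give neither the sex of the lines nor the number of clones of each genotype.

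Titin is the largest known protein of vertebrates. In striated muscle 1 molecule runs from the Z disc, where the ends of neighbouring sarcomeres meet, to the M band at the sarcomere's centre. It acts as a spring in the elastic I band, as a ruler along the thick filament of myosin, and as a scaffold for signalling proteins at a kinase domain near its C terminus. Most of the protein is a chain of immunoglobulin (Ig) and fibronectin type III (Fn3) domains. MEK inhibition blocks ERK signalling and GSK3 inhibition stabilises β-catenin, and together they hold mouse embryonic stem cells in the naive state, the state of the cells of the early embryo before they prepare to form germ layers.

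Ttn (ENSMUSG00000051747) lies on the minus strand of chr2:76703980-76982547 in GRCm38. The counted transcript, ENSMUST00000099981, has 347 exons, of which 346 hold coding sequence. The promoter below is the RefSeq sequence of chr2:76982498-76982797 on the minus strand of GRCm38.p6, from 250 bases before the gene's start at 76982547 to 50 after it. The counted transcript itself starts further downstream, at 76982455, and positions below are from the gene's start. The window is shown because it holds the start of the gene whose RNA differed between the media. No assay of these samples measured the promoter itself. The capitals mark matches to 4 of the 10 motifs searched on both strands.

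Ttn promoter: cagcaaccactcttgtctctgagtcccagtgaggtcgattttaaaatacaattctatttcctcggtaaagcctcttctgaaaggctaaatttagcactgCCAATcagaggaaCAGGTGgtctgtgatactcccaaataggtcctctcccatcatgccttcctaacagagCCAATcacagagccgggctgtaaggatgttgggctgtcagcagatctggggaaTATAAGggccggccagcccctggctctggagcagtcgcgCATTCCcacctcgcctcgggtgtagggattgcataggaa

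The capitals are, in order, CCAAT at 151 bases before the start, CAGGTG at 138 before it, CCAAT again at 81 before it, TATAAG at 28 before it and CATTCC at 11 after it. CAGGTG is a match to CANNTG, the E-box that basic helix-loop-helix factors such as MyoD bind, and a match to CANNTG is in 72.3% of the 32544 RefSeq promoters of the same length. CCAAT, the box bound by NF-Y, is in 37.4% of them. TATAAG, a variant of the TATA box TATAAA, is in 7.43%, and CATTCC, the core of the sites of TEAD factors, is in 14.6%. CACCC, a short form of the sites of KLF factors, has 1 match on the opposite strand and is in 57.7% of promoters. No match to TATAAA (13.6% of promoters), TTCNNNGAA (a STAT site, 8.33%), CTTTGA (a TCF/LEF site, 16%), CCGGAAGT (an ETS site, 3.92%) or ATGCAAAT (the octamer, 1.75%) is in this window. The matches are letters in a sequence and not sites shown to be used.

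Library totals ran between 2307219 and 9713857 counts. The counts of WT LIF replicates 1 and 3 were no further apart than sampling noise allows (chi-square over its degrees of freedom 0.858, 12373 genes), and both were counted as 1 sample, so WT LIF has n = 2 and every other group n = 3. The labelled cell type was checked by its markers. Pou5f1 and Sox2, the core factors of pluripotency, averaged 1649 and 1030 TPM (counts divided by coding length and scaled to a library sum of 1000000) in KI LIF, 1442 and 799 in KI LIF/2i, 1162 and 860 in WT LIF, and 1354 and 1096 in WT LIF/2i. Of the genes of the table, 13239 had enough counts to be tested. All 12 pluripotency markers listed were among them, and 6 were called lower and none higher in LIF in each genotype. That is 50%, against 9.05% of all tested genes called in KI and 13% in WT. The median of the 12 was 285 TPM in KI LIF, 577 in KI LIF/2i, 256 in WT LIF and 444 in WT LIF/2i.

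Ttn was read in every library. In KI LIF it had 1264, 2177 and 1334 counts in replicates 1, 2 and 3, equal to 437, 454 and 564 CPM (counts scaled to a library total of 1000000, with the totals adjusted by TMM), and in KI LIF/2i it had 20910, 11282 and 10634 counts, equal to 2182, 1403 and 1783 CPM. In WT LIF it had 1570, 1874 and 1637 counts, equal to 253, 284 and 254 CPM, and in WT LIF/2i it had 17995, 11667 and 6454 counts, equal to 2840, 1553 and 1960 CPM. All 6 LIF/2i libraries were above all 6 LIF libraries, and within LIF the 3 KI libraries were above the 3 WT libraries, while in LIF/2i the genotypes overlapped. Counting error was small beside these gaps: the widest 95% Poisson interval in LIF, that of KI LIF replicate 3, was 534 to 595 CPM. Ttn held between 0.0446% and 0.0578% of all counts in KI LIF, 0.14% to 0.215% in KI LIF/2i, 0.0258% to 0.0294% in WT LIF and 0.151% to 0.269% in WT LIF/2i. By raw count it was the 4th gene of the table in WT LIF/2i replicate 1 and the 9th in KI LIF/2i replicate 1, and its lowest rank was 809, in WT LIF replicate 1. In bulk RNA, fewer cells that express Ttn and less Ttn RNA per cell cannot be told apart.

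The group means of Ttn were 485 ± 68.9 CPM in KI LIF (SD, n = 3), 1790 ± 390 CPM in KI LIF/2i (n = 3), 268 ± 21.7 CPM in WT LIF (n = 2) and 2118 ± 658 CPM in WT LIF/2i (n = 3). In order from the highest, the means run WT LIF/2i, KI LIF/2i, KI LIF, WT LIF, and only the first pair of neighbours in that order has libraries that overlap. The spread was widest in LIF/2i, with coefficients of variation of 21.8% in KI and 31.1% in WT, against 14.2% in KI LIF and 8.08% in WT LIF.

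Between the media the mean was 3.69-fold lower in LIF than in LIF/2i in KI cells, a log2 difference of -1.88, and 7.89-fold lower in WT cells, a log2 difference of -2.98. The gap between the libraries themselves was narrower: the lowest LIF/2i library was 2.49-fold above the highest LIF library in KI and 5.47-fold above it in WT. Leaving out each library in turn gave -2.03 to -1.72 in KI and -3.16 to -2.71 in WT. With KI libraries of the same number set against each other, LIF over LIF/2i, the log2 differences were -2.32, -1.63 and -1.66 for replicates 1, 2 and 3, so replicate 1, the highest KI library in LIF/2i and the lowest in LIF, was apart from the other pairs. Fitted on the whole table, 257 of 13239 genes (1.94%) had a log2 fold change below that of Ttn in KI and 112 (0.846%) in WT, and 89 genes other than Ttn lay at or below it in both genotypes. Of these 89, 49 were lower past the threshold in both genotypes. In all, 431 genes were lower in LIF in both genotypes and 334 higher in both.

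Between the genotypes, mean Ttn was 1.81-fold higher in KI than in WT in LIF (log2 0.85), and the lowest KI LIF library was 1.54-fold above the highest WT LIF library. Of the tested genes, 585 (4.42%) had a more positive fold change in this comparison. In LIF/2i the KI mean was 1.18-fold below the WT mean (log2 -0.24), within the spread of the libraries. That sign rested on 1 library: without WT LIF/2i replicate 1 the difference was 0.03. The difference between the media effects, KI minus WT, was 1.10 on the log2 scale, a 2.14-fold smaller difference between media in KI. It ran between 0.83 and 1.28 with 1 library left out, and 534 tested genes (4.03%) had a more positive value. Across the whole table no gene passed for this difference in edgeR's quasi-likelihood test (0% higher, 0% lower), where 797 genes had an unadjusted p under 0.05, the smallest adjusted p was 0.135, and DESeq2 called 22. Without KI LIF/2i replicate 1 the quasi-likelihood test called 4.

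Y-linked genes moved with some of these values. Their summed level was 36, 2.08 and 3.8 CPM in KI LIF replicates 1, 2 and 3, 42.2, 1.87 and 1.51 CPM in KI LIF/2i, 161, 75 and 153 CPM in WT LIF, and 276, 46.2 and 255 CPM in WT LIF/2i. In both genotypes the LIF/2i library with the highest Ttn, replicate 1, also had the highest Y-linked sum of its group. At the low end KI LIF/2i did not follow: replicate 3, with the lowest sum, had more Ttn than replicate 2 (1783 against 1403 CPM). WT LIF/2i replicate 2, with the lowest Y-linked sum of its group, had the lowest Ttn, while the WT LIF library with the lowest sum had the highest Ttn and KI LIF replicate 1, with the highest sum, had the lowest. The part of this in the Ttn levels was not tested.

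The count of Ttn has to be read against its length. Its coding sequence is 105639 bases, or 35213 codons, 73.7 times the median of the tested genes (1434 bases) and 0.3% of the coding bases of all genes in the table. Per coding length Ttn averaged 7.55 ± 1.16 TPM in KI LIF (SD, n = 3), 26.3 ± 5.34 TPM in KI LIF/2i (n = 3), 4.14 ± 0.33 TPM in WT LIF (n = 2) and 31.8 ± 9.55 TPM in WT LIF/2i (n = 3). The median tested gene had 32.3, 31.7, 32.6 and 33.2 TPM in the same groups. Per length, then, Ttn lay close to the median tested gene in LIF/2i and well under it in LIF, and its best rank by TPM in any library was 5660. Of all 22416 genes, 45.2% were above Ttn in TPM in KI LIF, 31.8% in KI LIF/2i, 49.7% in WT LIF and 29.8% in WT LIF/2i. Genes without a count in the group or without a known coding length are included as not above. If parts of the coding sequence are spliced out in these cells, TPM over the full length understates the level of such transcripts. The counts are per gene and do not show which exons were read.

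**Figure D1:**
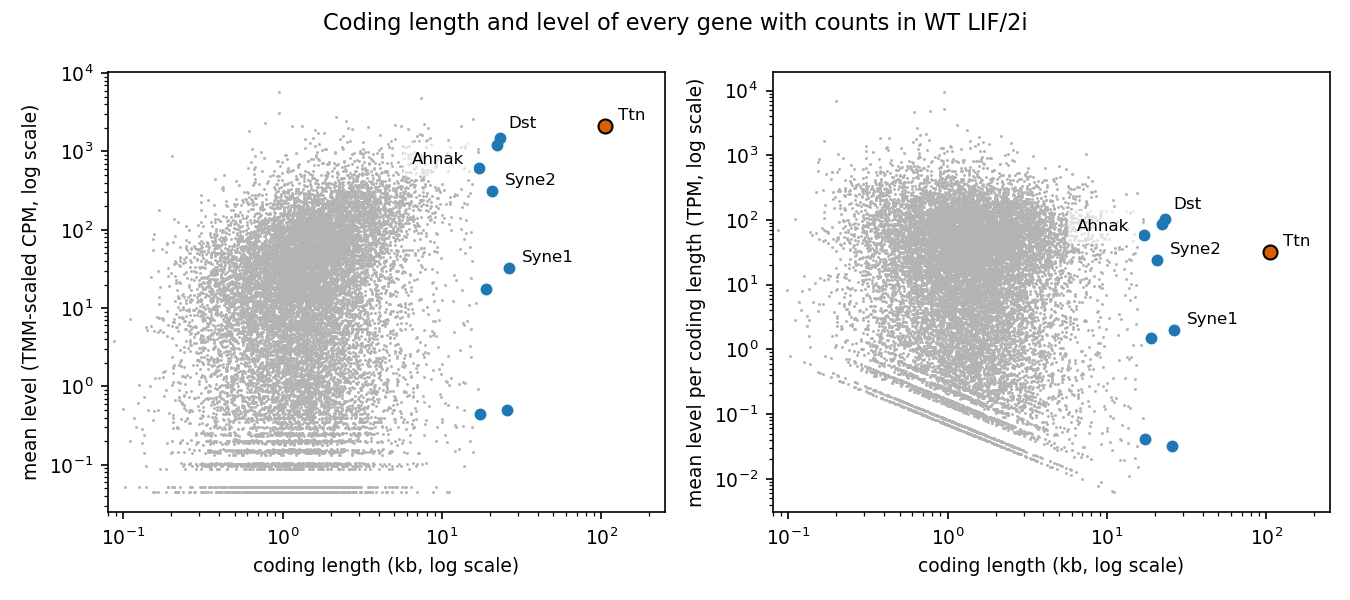
Mean level in WT LIF/2i against coding length, both on log scales, for every gene with counts there, as CPM (left) and as TPM over the coding length (right); blue points are the other genes among the 10 longest in the table and the orange point is Ttn. By CPM Ttn, at 2118, is above the other long genes, and by TPM, at 31.8, it is below Dst at 102.

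Other long genes differed from Ttn in level and in their difference between media. Of the 10 longest genes of the table, Dst, Macf1 and Ahnak were above Ttn in TPM in all 4 groups. Dst and Macf1, which encode spectraplakins that link actin to microtubules, had 66.9 and 52.4 TPM in KI LIF, 90.4 and 76.6 in KI LIF/2i, 74.6 and 52.4 in WT LIF, and 102 and 88 in WT LIF/2i. Macf1 fell by 0.63 on the log2 scale in KI (SE 0.17, adjusted p = 0.036) and by 0.79 in WT (SE 0.19, adjusted p = 0.0183). Its KI call ended without WT LIF/2i replicate 2, KI LIF/2i replicate 3, any 1 of the KI LIF libraries, or WT LIF replicates 1 and 3 (0.0513 to 0.106), and its WT call without WT LIF/2i replicate 1, WT LIF replicate 2, or WT LIF replicates 1 and 3 (0.0513 to 0.13). Ahnak, a giant scaffold protein under the membrane, had 23.8 TPM in KI LIF, 77.5 in KI LIF/2i, 26.1 in WT LIF and 57.6 in WT LIF/2i and fell in LIF in both genotypes, by 1.78 on the log2 scale in KI (SE 0.27, adjusted p = 0.00216) and by 1.18 in WT (SE 0.3, adjusted p = 0.023). In WT it was not called without WT LIF/2i replicate 1 (0.0773), without WT LIF replicate 2 (0.0807) and without WT LIF replicates 1 and 3 together (0.183). Syne2, a nesprin that ties the nucleus to actin, was at 24.1 TPM in WT LIF/2i and had a log2 difference of -1.42 in WT that was called (SE 0.35, adjusted p = 0.0214), but -0.39 in KI, which was not (0.498). In WT it was not called without WT LIF/2i replicate 1 or 2, WT LIF replicate 2, or WT LIF replicates 1 and 3 (0.0529 to 0.187). Adgrv1, a giant adhesion receptor, moved the other way, with log2 differences of 1.39 in KI (adjusted p = 0.0213) and 1.24 in WT (0.0406). Its KI call was lost without KI LIF replicate 2 or 3 (0.0787 to 0.0926), and its WT call without any of WT LIF/2i replicates 1, 2 and 3, WT LIF replicate 2, KI LIF/2i replicate 2, KI LIF replicates 2 and 3, or WT LIF replicates 1 and 3 together (0.0502 to 0.374). Dst was not called in WT (log2 -0.49, adjusted p = 0.117) or in KI (-0.52, 0.0797), although it was in KI with the replicate number as a block (0.0341). Among the 85 tested genes other than Ttn with a coding length of at least 10 kb the median log2 difference between media was -0.03 in KI and -0.02 in WT, with 8 higher and 5 lower in KI and 12 higher and 12 lower in WT. That is 15.3% called in KI and 28.2% in WT, against 8.83% and 12.6% of tested genes under 5 kb, whose medians were -0.03 and 0.01. Longer genes gather more counts at the same level, and the part of this in the shares called was not tested. Over all tested genes the medians were -0.03 in KI and 0.01 in WT, with 4.04% higher and 5.01% lower in KI, 9.05% in either direction, and 6.31% higher and 6.69% lower in WT, 13% in either direction.

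The count of changed genes in KI depends on how the libraries are paired. By the data, KI libraries of the same number go together across media for replicates 1 and 2, but not clearly for replicate 3. With KI libraries alone and the replicate number as a block 2006 genes were called, against 747 without the block and 1198 with all groups in the fit. Without KI LIF replicate 2 the count in KI was 565, and without KI LIF replicate 3 it was 492. In WT 1722 genes were called, 847 without WT LIF/2i replicate 1, 1044 without WT LIF/2i replicate 2, 399 without WT LIF replicate 2, and 766 without WT LIF replicates 1 and 3.

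The sarcomere genes, the thick filament, thin filament and Z disc genes that titin works with in muscle, were read as a group of 71, of which 43 were tested and 4 had no count in any library. In KI 9 rose and 2 fell in LIF, and in WT 9 rose and 4 fell, so most of the called sarcomere genes moved in the opposite direction to Ttn. The share called was 25.6% in KI, against 9.05% of all tested genes, and 30.2% in WT, against 13%. The median log2 difference between media of the 43 was 0.34 in KI and 0.66 in WT. With the replicate number as a block in KI, 14 rose and 2 fell. These counts rest on few libraries. In KI the number called was 7 without KI LIF/2i replicate 1, 6 without KI LIF/2i replicate 2, and 4 without KI LIF replicate 2 or replicate 3, and in WT it was 7 without WT LIF/2i replicate 1 and 2 without WT LIF replicate 2, the 2 left being Flnc and Des. By level Ttn was among the more abundant of the group in LIF/2i: 9 of the 67 with a known coding length were above it in TPM in KI LIF/2i and 8 in WT LIF/2i, against 21 in KI LIF and 28 in WT LIF.

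**Figure D2:**
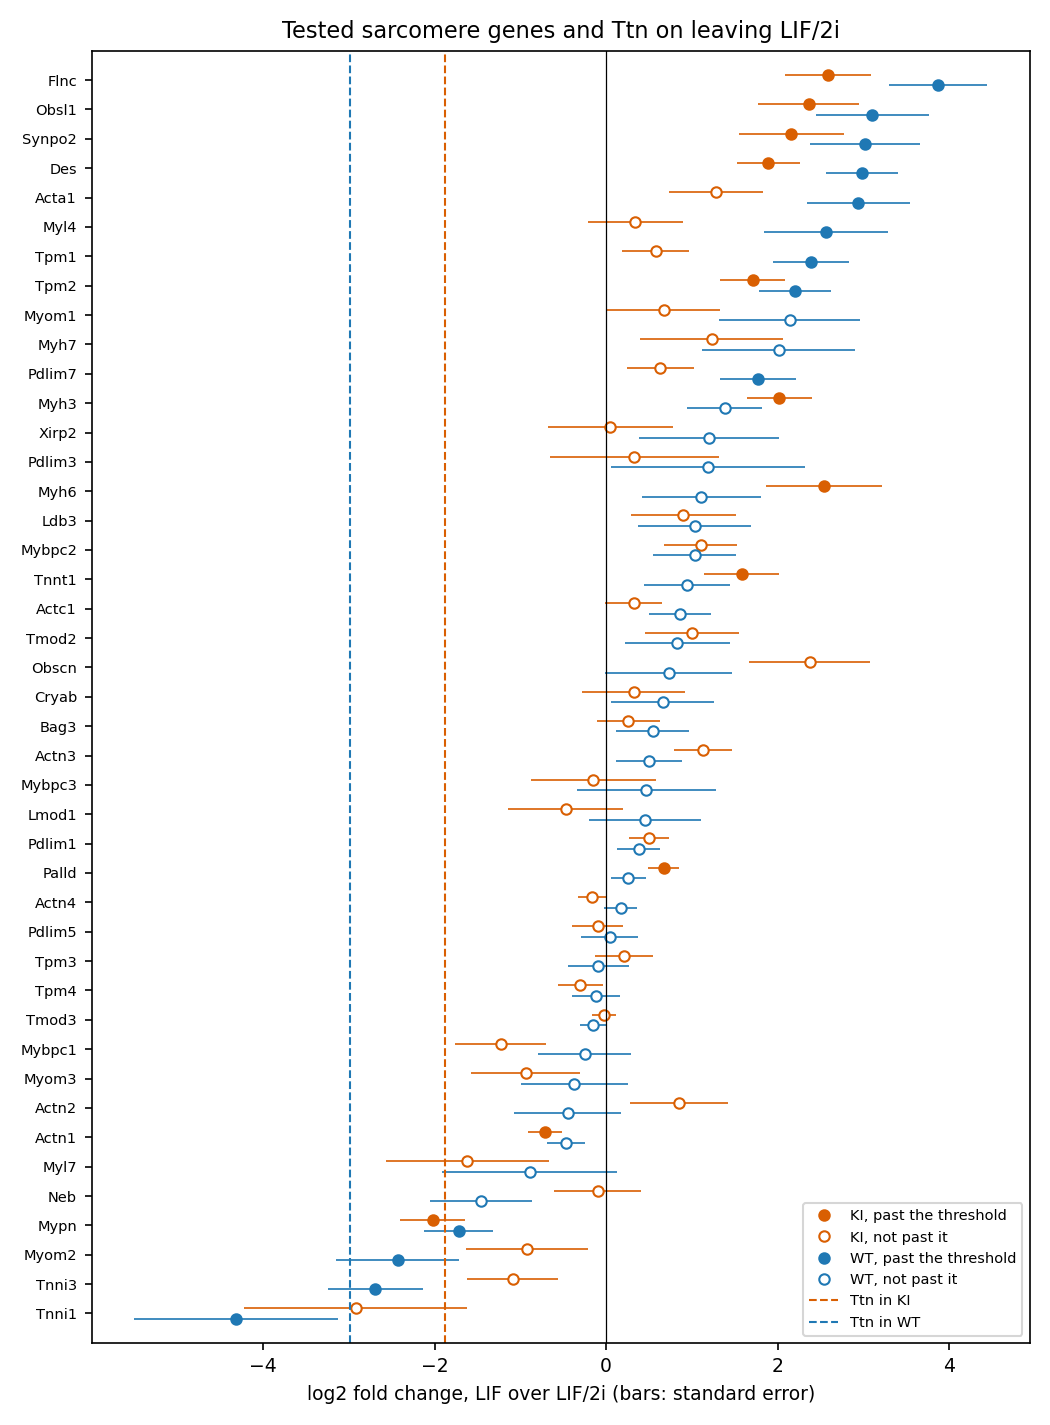
Log2 fold change of LIF over LIF/2i for the 43 tested sarcomere genes in KI (orange) and WT (blue), with bars of 1 standard error and filled points for genes past an adjusted p of 0.05; dashed lines are the values of Ttn. Flnc, Obsl1, Synpo2, Des and Tpm2 are filled on the right in both genotypes, and Mypn is the 1 gene filled on the left in both.

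In the Z disc list, 25 genes of which 17 were tested, 4 rose and 2 fell in KI, and 4 rose and 1 fell in WT. That is 35.3% of those tested in KI and 29.4% in WT, against 9.05% and 13% of all tested genes. The KI count was 3 without KI LIF replicate 2 or 3, and the WT count 2 without WT LIF/2i replicate 1 or WT LIF replicate 2 and 3 without WT LIF replicates 1 and 3. Des, the intermediate filament desmin that ties Z discs together, had 29, 32.1 and 38.9 CPM in KI LIF against 7.31, 7.96 and 11.9 CPM in KI LIF/2i, and 20.8, 55.4 and 20.4 CPM in WT LIF against 3.16, 5.19 and 6.38 CPM in WT LIF/2i. Every LIF library was above every LIF/2i library, by 1.89 on the log2 scale in KI (SE 0.37, adjusted p = 0.00864) and by 2.98 in WT (SE 0.42, adjusted p = 0.00136). Flnc, the actin cross-linker filamin C, had 83, 136 and 161 CPM in KI LIF against 9.5, 20.1 and 34 CPM in KI LIF/2i, and 53, 187 and 55.3 CPM in WT LIF against 7.1, 7.32 and 10.9 CPM in WT LIF/2i, log2 differences of 2.59 (SE 0.50, adjusted p = 0.00759) and 3.87 (SE 0.57, adjusted p = 0.0018). Both genes kept these calls with any 1 library left out.

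Mypn, like Ttn, was lower in LIF. It encodes myopalladin, which holds nebulin to α-actinin at the Z disc, and it had 6.92, 13.1 and 6.34 CPM in KI LIF against 25.2, 46.8 and 39.9 CPM in KI LIF/2i, and 18.8, 25.4 and 12.4 CPM in WT LIF against 91.1, 68 and 42.2 CPM in WT LIF/2i. The LIF libraries were below the LIF/2i libraries of their genotype without overlap. It fell in LIF by 2.02 on the log2 scale in KI (SE 0.38, adjusted p = 0.00706) with any library left out, and by 1.72 in WT (SE 0.40, adjusted p = 0.0161), where it was not called without WT LIF/2i replicate 1 (0.0629), WT LIF replicate 2 (0.0614) or WT LIF replicates 1 and 3 (0.145). Its level was 3.68 TPM in KI LIF, 14.7 in KI LIF/2i, 8.48 in WT LIF and 26.8 in WT LIF/2i, so in LIF, unlike Ttn, its mean was lower in KI than in WT (log2 -1.16, not called, adjusted p = 0.332). Tcap, the telethonin that joins the ends of titin pairs at the Z disc, was at or near 0, with 0 counts in KI LIF, 1 in KI LIF/2i, 0 in WT LIF and 1 in WT LIF/2i.

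In the thick filament and M band list, 22 genes of which 13 were tested, 3 rose and none fell in KI, and 2 rose and 1 fell in WT. That is 23.1% of those tested in each genotype, against 9.05% of all tested genes in KI and 13% in WT. The KI count was 1 without KI LIF/2i replicate 3 or KI LIF replicate 2 or 3. The WT count was 1 without WT LIF/2i replicate 1 or 2 or WT LIF replicates 1 and 3, and 0 without WT LIF replicate 2. Obsl1, the obscurin-like protein that binds titin at the M band, was called in both genotypes, with 27.4 TPM in KI LIF against 5.11 in KI LIF/2i (log2 2.36, SE 0.59, adjusted p = 0.029) and 23.3 TPM in WT LIF against 2.72 in WT LIF/2i (log2 3.10, SE 0.66, adjusted p = 0.0106). The KI call was lost without KI LIF/2i replicate 3, KI LIF replicate 2 or KI LIF replicate 3 (0.0725 to 0.108), and the WT call without WT LIF replicate 2 (0.0841). Myh3, the embryonic skeletal myosin heavy chain, rose in KI by 2.02 on the log2 scale (SE 0.38, adjusted p = 0.00671) with any library left out. Myh7, the slow and cardiac myosin heavy chain that titin lies along, was at 0.775 TPM in KI LIF, 0.309 in KI LIF/2i, 1.02 in WT LIF and 0.232 in WT LIF/2i, far below Ttn in each group.

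In the thin filament list, 24 genes of which 13 were tested, 2 rose and none fell in KI, and 3 rose and 2 fell in WT. That is 15.4% of those tested in KI and 38.5% in WT, against 9.05% and 13% of all tested genes. Tpm2, β-tropomyosin, rose in KI by 1.71 on the log2 scale (SE 0.38, adjusted p = 0.0166) and in WT by 2.20 (SE 0.42, adjusted p = 0.00639). In WT Tpm1, α-tropomyosin, and Acta1, skeletal α-actin, also rose, and Tnni3, cardiac troponin I, fell by 2.69 (SE 0.55, adjusted p = 0.00824). None of the 5 thin filament calls in WT held without WT LIF replicate 2, and neither of the 2 in KI held without KI LIF/2i replicate 2, KI LIF replicate 2 or KI LIF replicate 3, while 1 was called without WT LIF/2i replicate 1 or KI LIF/2i replicate 1. Tnni3 was the 1 sarcomere gene called between genotypes, lower in KI LIF/2i than in WT LIF/2i at 7.2, 3.86 and 3.19 against 25.9, 19.6 and 8.2 CPM (log2 -1.91, adjusted p = 0.0477), where 2.21% of tested genes were called, 0.974% higher and 1.24% lower. That call was lost without any of WT LIF/2i replicates 1 and 2, WT LIF replicate 2, KI LIF/2i replicates 2 and 3, KI LIF replicates 2 and 3, or WT LIF replicates 1 and 3 together (0.064 to 0.158). In LIF no sarcomere gene was called between genotypes, where 0.144% of tested genes were, 0.0151% higher and 0.128% lower.

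The proteins that bind titin's spring and kinase regions were read as a list of 19 genes. Of these 17 were tested, none was called in KI, and 1 rose in WT, where 9.05% and 13% of all tested genes were called in KI and in WT, so with 17 genes the counts are not far from that background. The medians were -0.19 in KI and 0.09 in WT. In KI 2 were called without KI LIF/2i replicate 1, and 1 without KI LIF/2i replicate 3 or with the replicate block. The gene called in WT was Ankrd1, the ankyrin repeat protein of the I band spring, at log2 4.87 (SE 1.08, adjusted p = 0.0127) and with 0, 0 and 0.158 CPM among the WT LIF/2i libraries, so its fold depends on the prior count of the fit. It was not called without WT LIF/2i replicate 2 (0.0578) or WT LIF replicate 2 (0.119), and it had too few counts to be tested without KI LIF replicate 2, at a minimum count of 30, with only the groups compared, and with 12 libraries with or without the replicate block. Trim63, a ubiquitin ligase that binds titin beside the kinase domain, was lower in KI LIF/2i than in WT LIF/2i, at 4.07, 2.24 and 2.68 against 7.57, 9.32 and 10.6 CPM (log2 -1.59, adjusted p = 0.0295). That call was lost without any of WT LIF/2i replicates 1, 2 and 3, WT LIF replicate 2, KI LIF/2i replicates 2 and 3, KI LIF replicate 3, or WT LIF replicates 1 and 3 together (0.0502 to 0.0972).

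Genes of proteins built, like titin, from Ig and Fn3 domains were 23, of which 18 were tested. Called were 27.8% of these 18 in KI and 38.9% in WT, against 9.05% and 13% of all tested genes. In KI 4 rose and 1 fell, 5 rose and 3 fell with the replicate block, and 3 were called without KI LIF replicate 2 or replicate 3. In WT 4 rose and 3 fell, with 4 called without WT LIF/2i replicate 1, 1 without WT LIF replicate 2 and 3 without WT LIF replicates 1 and 3. Speg, a striated muscle kinase with titin-like domains, had 10, 28.8 and 25.8 CPM in KI LIF against 1.25, 1.87 and 1.84 CPM in KI LIF/2i, and 11.8, 28.9 and 11.8 CPM in WT LIF against 0.158, 0.799 and 1.21 CPM in WT LIF/2i. It rose by 3.71 in KI (SE 0.54, adjusted p = 0.00178) and by 4.91 in WT (SE 0.65, adjusted p = 0.00108) with any library left out, in the opposite direction to Ttn. Trio, a giant guanine nucleotide exchange factor with an Ig domain and a kinase domain, rose by 1.45 in KI (SE 0.26, adjusted p = 0.00567).

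Of 17 genes known to regulate splicing of Ttn or of muscle transcripts 16 were tested. Rbm20, the factor that represses inclusion of titin's spring exons in the heart, was at 6.73 TPM in KI LIF, 6.43 in KI LIF/2i, 6.03 in WT LIF and 7.43 in WT LIF/2i and was not called (adjusted p = 0.998 in KI and 0.777 in WT). Qk, the RNA-binding protein Quaking, fell in KI by 0.78 on the log2 scale (SE 0.13, adjusted p = 0.00329) and in WT by 0.66 (SE 0.14, adjusted p = 0.0109), and with Ptbp3, lower in WT, and Mbnl3, higher in WT, it made up the calls of this list between media. That is 6.25% of those tested in KI and 18.8% in WT, against 9.05% and 13% of all tested genes. With the replicate block 2 were called in KI. None of the 3 WT calls held without WT LIF replicate 2, and Mbnl3 was the 1 that held without WT LIF replicates 1 and 3.

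Of 31 muscle transcription factors 19 were tested. In KI 1 rose and 1 fell, or 3 rose and 1 fell with the replicate block, and in WT 3 rose. That is 10.5% of those tested in KI and 15.8% in WT, close to the 9.05% and 13% of all tested genes. Hand1, a helix-loop-helix factor of heart and extraembryonic mesoderm, rose in both genotypes with any library left out. It had 3.11, 6.25 and 8.03 CPM in KI LIF against 0.104, 0.249 and 0 CPM in KI LIF/2i, and 6.44, 16.8 and 8.21 CPM in WT LIF against 0.158, 0 and 0.304 CPM in WT LIF/2i. Every LIF library was above every LIF/2i library (adjusted p = 0.00163 in KI and 0.000835 in WT). Tead4, a TEAD factor of the trophectoderm, fell in KI by 1.48 on the log2 scale (adjusted p = 0.0171), which was lost without KI LIF replicate 2 (0.0634) or replicate 3 (0.074). The WT count was 1 without WT LIF replicate 2 and 5 without KI LIF/2i replicate 1, and the KI count 1 without KI LIF replicate 2 or 3. Myod1, the master factor of skeletal muscle, had 1 count over all 12 libraries.

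Muscle cell markers ranged from 0 to levels above Ttn per coding length. In KI LIF 2 of the 15 cardiomyocyte and 5 of the 12 skeletal muscle markers were above Ttn in TPM, and in WT LIF 6 and 6. In LIF/2i these counts were 0 and 1 in KI, and 1 and 1 in WT. The 15 cardiomyocyte markers summed to 49.1 to 71.3 CPM per library in KI LIF, 63.9 to 72.1 in KI LIF/2i, 60.3 to 66.2 in WT LIF and 80.5 to 125 in WT LIF/2i, with Pln at 0 in every library and Tnnt2 at 0 to 0.454 CPM in LIF and 0.168 to 0.473 CPM in LIF/2i. That sum was higher in WT LIF/2i than in WT LIF without overlap and overlapped between media in KI. The share of tested cardiomyocyte markers called was 10% in KI and 20% in WT, near the 9.05% and 13% of all tested genes. Of the 10 tested, Myh6, the atrial myosin heavy chain, rose in KI (log2 2.54, adjusted p = 0.0378), a call that 7 single leave-outs ended, and Tnni3 and Ryr2, the cardiac calcium release channel, fell in WT, neither of them called without WT LIF replicate 2. The 12 skeletal muscle markers summed to 397 to 409 CPM in KI LIF, 351 to 465 in KI LIF/2i, 362 to 407 in WT LIF and 341 to 396 in WT LIF/2i, and the highest of them in every library was Mylpf, a fast muscle myosin light chain, at 183 to 200 CPM in KI LIF, 250 to 330 in KI LIF/2i, 169 to 176 in WT LIF and 216 to 298 in WT LIF/2i. Of the 6 tested, Des and Myh3 rose and Mylpf fell in KI, Mylpf not without KI LIF/2i replicate 2 or KI LIF replicate 2 or 3 (5 rose and 1 fell with the replicate block), and Des and Acta1 rose in WT, Acta1 not without WT LIF replicate 2. Called were 50% of the 6 skeletal markers tested in KI and 33.3% in WT, against 9.05% and 13% of all tested genes. Fibroblast markers, which feeder cells would carry, included 2 collagens that rose in LIF in both genotypes. The share of tested fibroblast markers called was 27.3% in KI and 54.5% in WT. Col1a2 had 42.2, 42.3 and 35.5 CPM in KI LIF against 0, 1.12 and 2.35 CPM in KI LIF/2i, and 8.85, 205 and 6.04 CPM in WT LIF against 0.473, 0.266 and 0.304 CPM in WT LIF/2i (adjusted p = 0.0119 in KI and 0.00287 in WT). WT LIF replicate 2, far above the other WT LIF libraries in Col1a2, was also the WT LIF library with the most Ttn, 284 CPM against 253 and 254 CPM. In KI LIF it was the reverse: replicate 3 had the least Col1a2 and the most Ttn, 564 CPM. Col1a1 rose by 2.82 in KI (adjusted p = 0.0256) and by 5.55 in WT (0.00236), and the KI call was lost without any of KI LIF/2i replicates 1, 2 and 3 and KI LIF replicates 2 and 3 (0.0593 to 0.0853). Of the 14 fibroblast markers 11 were tested, 2 rose and 1 fell in KI (4 rose and 1 fell with the replicate block), and 4 rose and 2 fell in WT, or 3 were called in all without WT LIF/2i replicate 1, WT LIF/2i replicate 2 or WT LIF replicate 2. Their summed level was 1897 to 2495 CPM in KI LIF against 3345 to 4535 in KI LIF/2i and 1923 to 2052 in WT LIF against 4328 to 5320 in WT LIF/2i, and most of it was Fn1, fibronectin, which stem cells also express. The part of these cell types in the Ttn level was not tested.

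Genes that the medium is known to move give a scale for the difference in Ttn. All 20 genes of naive pluripotency were tested, 11 fell and none rose in KI, and 12 fell and none rose in WT, with medians of -0.81 in KI and -0.84 in WT. That is 55% in KI and 60% in WT, against 9.05% and 13% of all tested genes. Without KI LIF replicate 3 the KI count was 7, and without WT LIF replicate 2 the WT count was 3. The log2 difference of Ttn between media was below that of 18 of the 20 in KI and of all 20 in WT. The 2 exceptions in KI were Tfcp2l1 and Prdm14, naive transcription factors. Tfcp2l1 had 112, 153 and 122 CPM in KI LIF against 805, 642 and 613 CPM in KI LIF/2i, and 203, 182 and 197 CPM in WT LIF against 881, 897 and 481 CPM in WT LIF/2i, log2 differences of -2.41 (SE 0.23, adjusted p = 0.000319) and -1.98 (SE 0.26, adjusted p = 0.00113). Prdm14 differed by -2.22 in KI (SE 0.26, adjusted p = 0.000639) and by -2.32 in WT (SE 0.29, adjusted p = 0.000835). All 20 were above Ttn in TPM in KI LIF, KI LIF/2i and WT LIF, and 18 were in WT LIF/2i.

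Targets of ERK, the pathway MEK inhibition blocks, were higher in LIF where called. Of 20 genes 19 were tested, and 5 rose in KI (8 with the replicate block) and 8 in WT, with none lower in either. That is 26.3% of those tested in KI and 42.1% in WT, against 9.05% and 13% of all tested genes. Dusp6, the ERK phosphatase, had 85.4, 89.8 and 101 CPM in KI LIF against 13.8, 5.97 and 13.7 CPM in KI LIF/2i, and 112, 79.8 and 114 CPM in WT LIF against 7.73, 5.99 and 5.16 CPM in WT LIF/2i. Its log2 differences were 3.05 in KI (SE 0.29, adjusted p = 0.000297) and 3.91 in WT (SE 0.32, adjusted p = 9.35e-05). Of the 16 Wnt targets, which GSK3 inhibition raises, 13 were tested, 3 fell and 1 rose in KI, and 7 fell and 1 rose in WT, with medians of -0.30 in KI and -1.03 in WT. The shares called were 30.8% in KI and 61.5% in WT. The KI count was 2 without KI LIF/2i replicate 2, 1 without KI LIF replicate 2 and 0 without KI LIF replicate 3, and the WT count was 1 without WT LIF replicate 2 and 4 without WT LIF replicates 1 and 3. Tnfrsf19, a Wnt-responsive receptor, fell by 1.18 in KI (adjusted p = 0.0201, lost without KI LIF/2i replicate 2 or KI LIF replicate 2 or 3 at 0.0578 to 0.098) and by 2.34 in WT (adjusted p = 0.00106). Of 19 genes of the formative and primed states 18 were tested, 8 rose in KI, and 6 rose and 1 fell in WT. The WT count was 4 without WT LIF/2i replicate 1 or replicate 2, and fewer still were called without WT LIF replicate 2. As shares, 44.4% of the 18 were called in KI and 38.9% in WT.

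The genes whose levels ran most like Ttn were found by the Pearson correlation of log2 CPM over the 11 samples, among 10320 tested genes with a mean of at least 5 CPM. These samples share 4 group means and their library sizes, so the coefficient mostly reflects the 4 groups, and 125 genes had an r over 0.9. Among the first 10 were Pou2f3 (r 0.974), Tmem135 (0.973), Klf8 (0.97), Tnfrsf21 (0.968), Alg2 (0.967), Fry (0.965), Dock5 (0.956), Glce (0.955) and Wdr62 (0.954), and the first after the 10 was Dnah8 at 0.953. Of these 10, 4 were also in the first 10 by Spearman's rank correlation and 8 with the 12 libraries counted separately. After the group means were taken away, the correlation of the 10 with Ttn over the deviations was 0.33 to 0.808, highest for Dock5. The median over all genes ranked was 0.00617, and none of the 10 was among the first 10 by that measure. The r that picked the 10 includes these deviations, so values above that median follow in part from the choice and are no separate sign of likeness.

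**Figure D3:**
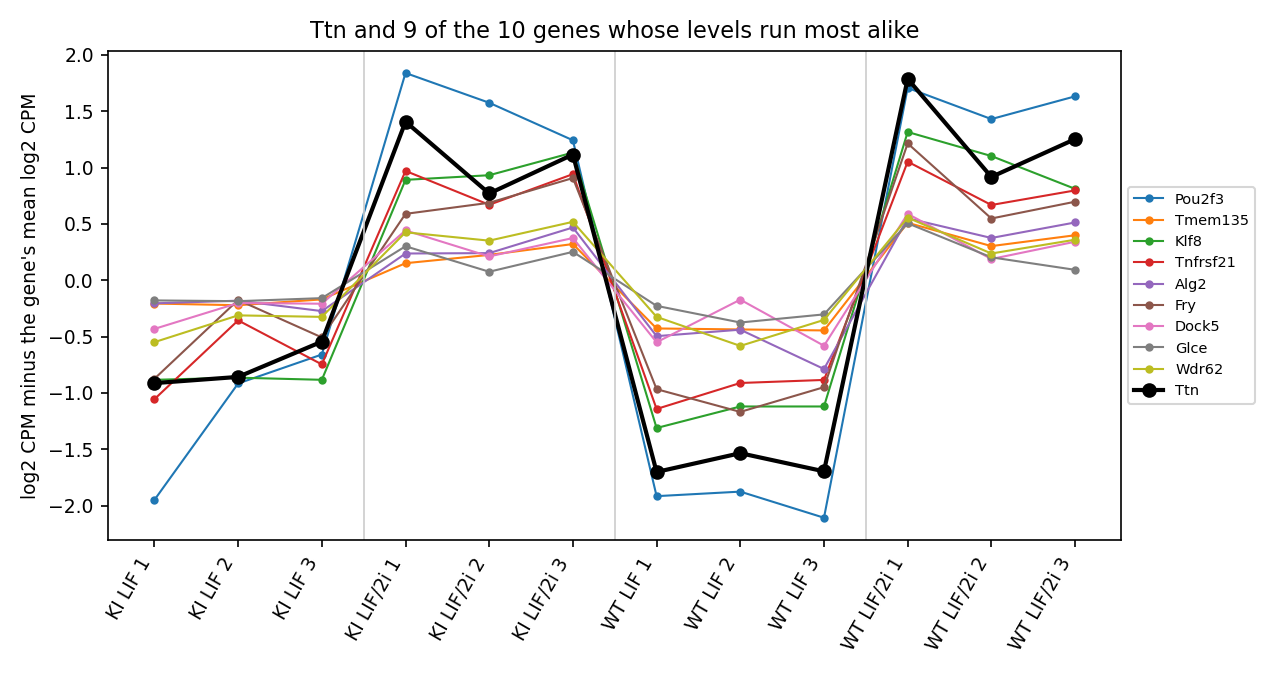
Log2 CPM of Ttn (black) and of 9 of the 10 genes most like it, each minus its own mean over the 12 libraries, by library. All 10 lines are higher in the LIF/2i libraries, and Pou2f3 is the gene whose range comes closest to that of Ttn.

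Pou2f3, an octamer-binding factor known from tuft cells and skin, was the one of these 9 with a larger difference than Ttn in both genotypes. It had 1.73, 3.54 and 4.23 CPM in KI LIF against 23.9, 19.9 and 15.8 CPM in KI LIF/2i, and 1.77, 1.82 and 1.55 CPM in WT LIF against 21.8, 18 and 20.7 CPM in WT LIF/2i. It fell by 2.65 on the log2 scale in KI (SE 0.32, adjusted p = 0.000653) and by 3.55 in WT (SE 0.38, adjusted p = 0.000307). Klf8, a zinc finger factor, had 15.2, 15.4 and 15.2 CPM in KI LIF against 52, 53.5 and 61.5 CPM in KI LIF/2i, and 11.3, 12.9 and 12.9 CPM in WT LIF against 69.8, 60.2 and 49.2 CPM in WT LIF/2i, a fall of 1.86 in KI (adjusted p = 0.000297) and of 2.27 in WT (adjusted p = 0.000189). Fry, a giant protein of the spindle and of cell shape, had a mean of 67.2 CPM in KI LIF, 157 in KI LIF/2i, 45.3 in WT LIF and 170 in WT LIF/2i and fell by 1.22 and 1.91 (adjusted p = 0.00428 in KI and 0.000911 in WT). Tnfrsf21, the death receptor DR6, fell by 1.54 in KI and 1.80 in WT (adjusted p = 0.000728 and 0.0007). These 4 genes kept their calls in both genotypes with any library left out. Each had a larger fold between media in WT than in KI, as Ttn did, but none passed the test of that difference (adjusted p = 0.85 for Pou2f3, 0.902 for Klf8, 0.817 for Fry and 0.945 for Tnfrsf21). All 9 genes were picked for running like Ttn over these same samples. Their calls between media, and the larger fold in WT, therefore follow in part from that choice. The log2 differences between media of the other 5 lay between -1.01 and -0.39, and Tmem135 and Glce were not called in KI. Alg2 was called in KI at an adjusted p of 0.0481, and it was not called with the replicate block (0.0599) or with any 1 library other than WT LIF replicate 3 left out (0.0528 to 0.166).

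The genes around Ttn on chromosome 2 were looked at next. The table holds 12 genes that start within 1 Mb of the Ttn start, of which 9 were tested, and none was called in any of the 4 comparisons between media or between genotypes. With 9.05% of all tested genes called between media in KI, 13% in WT, 0.144% between genotypes in LIF and 2.21% in LIF/2i, no call among 9 genes is near the background. Their median log2 difference between media was -0.01 in KI and 0.19 in WT. The nearest tested starts on the 2 sides are those of Ccdc141, 188 kb upstream, and of Plekha3, 307 kb downstream, whose last base is close to the end of Ttn. Ccdc141, which encodes a coiled-coil protein with an Ig domain, had 7.61, 26.7 and 33 CPM in KI LIF against 7.51, 41.8 and 104 CPM in KI LIF/2i, and 17.5, 13.9 and 22.8 CPM in WT LIF against 33.1, 23.3 and 17.9 CPM in WT LIF/2i. The media overlapped in both genotypes (log2 -1.18, SE 0.71, adjusted p = 0.356 in KI, and -0.55, SE 0.80, adjusted p = 0.719 in WT). Plekha3, a lipid-binding protein of the Golgi, had means of 42.4 CPM in KI LIF, 45 in KI LIF/2i, 40.5 in WT LIF and 37.8 in WT LIF/2i (log2 -0.08 in KI, adjusted p = 0.865, and 0.10 in WT, 0.838). Prkra, the activator of the eIF2α kinase PKR, had the highest value among the neighbours in both genotypes, 0.45 in KI (SE 0.27, adjusted p = 0.35) and 0.94 in WT (SE 0.29, adjusted p = 0.0537), neither called. Pde11a, Pjvk and Zfp385b had too few counts to be tested.

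**Figure D4:**
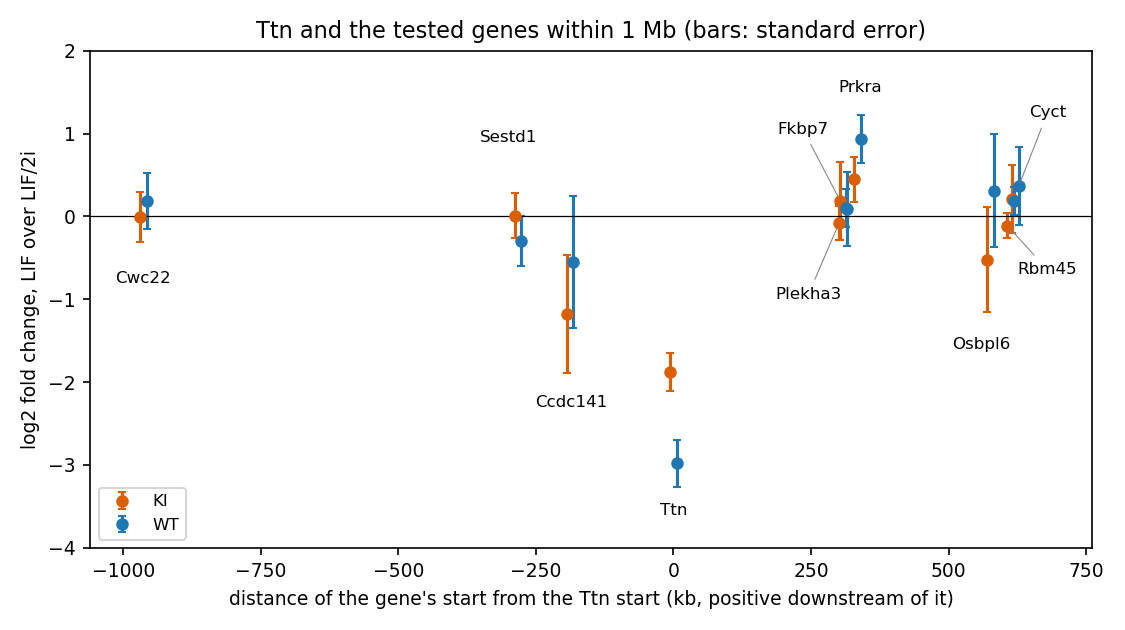
Log2 fold change of LIF over LIF/2i for Ttn and the 9 tested genes that start within 1 Mb of it, against the distance of their starts in kb, for KI (orange) and WT (blue) with bars of 1 standard error. Ttn lies at -1.88 in KI and -2.98 in WT, and the neighbours lie between -1.18 and 0.94.

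The sequence of the gene bears on the count itself. An annotated antisense gene, Gm13938, overlaps Ttn at 76722776 to 76786708 of chromosome 2, and the treatment of strand in counting is not given in the sources used here, so reads of the 2 strands may not have been told apart where its exons cross coding exons of Ttn. Of the 105610 stretches of 30 bases in the Ttn coding sequence, 311 (0.294%) also occur on the opposite strand of a Gm13938 transcript. Within the coding sequence 967 of these stretches (0.916%) occur more than once, in a run of up to 423 bases, and 0 occur in transcripts of other genes on the same strand.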

How the data were processed

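RNA-seq of mouse embryonic stem cells was analysed from 12 libraries. Per the labels' protocols, cells were lysed, Trizol was used on the cleared lysate, and the RNA was depleted of ribosomal RNA, fragmented and handled as ribosome footprints are. RNA in the pellet was not measured. The authors deposited raw counts per gene with no normalization; per the file headers each gene's count is that of 1 transcript's coding sequence. Listed in the submitters' processing notes, with no role, are UMI-tools 1.0.1, Bowtie 1.3.0 and cutadapt 3.4. Not given in the sources used here: build, annotation, counting tool, strand, and what was done with reads of several matches.

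Of 22416 genes 4483 had no count. Coding lengths and coordinates come from GENCODE M21 (GRCm38), where 22155 transcripts were found, 21766 with the same symbol; 4 sarcomere genes have no length. TPM is the count per coding length scaled to a sum of 1000000. Promoters are from RefSeq (GRCm38.p6), searched for the 10 motifs spelled out in the text.

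A chi-square test over genes with at least 20 counts found no difference between WT LIF replicates 1 and 3 beyond sampling noise, and their mean was used as 1 sample, leaving 11. The 13239 genes kept by filterByExpr (minimum count 10) entered edgeR 4.0.16 (R 4.3.3): TMM, with factors 0.946 to 1.04, and a robust glmQLFit with 1 mean per group, at a biological coefficient of variation of 0.234. Each comparison was tested two-sided by glmQLFTest with Benjamini-Hochberg adjustment over all tested genes at 0.05. Adjusted p-values and calls in the text are from this test unless another is named, and Poisson intervals cover counting error only. Fitted log2 differences used edgeR's default prior count, and log2 CPM in the correlations used a prior count of 2. The differences of Ttn are log2 ratios of group means, with no prior count. Whether replicates were separate cultures is not in the labels; the p-values therefore rest on a spread that may be technical. The test was run on simulated data first.

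Deviations from the group means of same-numbered KI libraries correlated across media at 0.51, 0.39 and 0.22 for replicates 1, 2 and 3. Each KI LIF library's highest correlation with a KI LIF/2i library of another number was -0.22, 0.08 and 0.22 in the same order. The data therefore pair replicates 1 and 2 but do not settle replicate 3, and the pairing is not from the labels. No other pair of groups had all 3 correlations over 0.1.

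Ttn and the gene lists were chosen with earlier results of these data known, so list counts are read only beside those of all genes. Named were Ttn, the 10 most like it (1 of them is not reported here), the 10 longest, all within 1 Mb, up to 4 called members higher and 4 lower per list and comparison, and muscle markers by level; Col1a2, Rbm20, Tcap, Myh7, Pou5f1 and Sox2 values were chosen for their role. Alternatives were DESeq2 1.42.0, limma-voom (limma 3.58.1), DESeq2 size factors, library totals with and without Ttn, no filter, a minimum count of 30, only the groups compared, 12 libraries, the replicate block, TPM and leaving out each library. KI libraries alone with and without the block, and leaving out WT LIF replicates 1 and 3 together, were chosen after seeing the data.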

Additional observations from a re-analysis of the deposited data

Results flagged for a closer look

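One result stands out because the media moved a gene in opposite directions in the 2 genotypes. Sox3, a transcription factor of the formative and neural lineages and a member of the formative and primed list, had 7.26, 14.8 and 8.03 CPM in KI LIF against 3.76, 6.22 and 3.02 CPM in KI LIF/2i, and 1.93, 1.97 and 3.1 CPM in WT LIF against 10.9, 5.59 and 7.29 CPM in WT LIF/2i. All KI LIF libraries were above all KI LIF/2i libraries, and all WT LIF libraries were below all WT LIF/2i libraries. The log2 difference between media was 1.23 in KI (SE 0.4, adjusted p = 0.0825) and -1.81 in WT (SE 0.49, adjusted p = 0.0309), and WT was not called without WT LIF/2i replicate 1 (0.114), WT LIF replicate 2 (0.217) or WT LIF replicates 1 and 3 (0.124). The difference between these effects was 3.04 on the log2 scale (SE 0.64) and did not pass edgeR's quasi-likelihood test after Benjamini-Hochberg adjustment (adjusted p = 0.407).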

How the results depend on the processing

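The differences of Ttn between media kept their direction in every alternative and leave-out run. Ttn was chosen for this fall and its libraries did not overlap between media, so leaving out libraries could not reverse the direction, only change the size. DESeq2 size factors, library totals with and without Ttn, TPM, 12 libraries, and leaving out WT LIF replicates 1 and 3 gave -1.88 to -1.80 in KI and -3.01 to -2.90 in WT. KI minus WT of Ttn in LIF/2i reversed to 0.03 without WT LIF/2i replicate 1 (range -0.42 to 0.03 with 1 library left out).

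Counts of called genes moved more. In KI between media (1198) only the groups compared gave 747, KI libraries alone 2006 with the replicate block and 747 without it, and single leave-outs 492 to 1335. In WT (1722) 12 libraries gave 2736, the replicate block over 12 libraries 2856, leaving out WT LIF replicates 1 and 3 766, and single leave-outs 399 to 2170. For KI minus WT in LIF (19) no filter gave 32, DESeq2 206, limma-voom 11, only the groups compared 31, 12 libraries 142, the block 174, leaving out WT LIF replicates 1 and 3 2, and single leave-outs 1 to 53. For KI minus WT in LIF/2i (293) DESeq2 gave 916, only the groups compared 65, 12 libraries 522, the block 569, leaving out WT LIF replicates 1 and 3 160, and single leave-outs 64 to 1001. For the difference between media effects (0) DESeq2 gave 22, 12 libraries 1, the block 2, leaving out WT LIF replicates 1 and 3 1, and single leave-outs 0 to 4. Leaving out WT LIF replicate 2, or replicates 1 and 3, leaves 1 WT LIF sample, assumed to vary like the other groups. Fewer samples were fitted in the leave-outs; otherwise the cause was not tested. Among WT libraries and between genotypes, pairing of replicates of the same number is neither given in the labels nor clear in the data. Of 122 calls on named genes 50 were kept in each single leave-out. The replicate block in KI changed the KI calls of Dst and Alg2 among the genes most like Ttn and the longest, and list members gained calls under it as the list counts show. The lowest depth, 2307219 counts in KI LIF replicate 3, limits genes near the count filter more than Ttn.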
